A study of Mus musculus with 12 samples.

Results

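The Gata, Tal and Lmo factors are 8 regulators of gene activity, Gata2, Gata3, Tal1, Tal2, Lmo1, Lmo2, Lmo3 and Lmo4, measured here in mouse embryonic stem cells that were turning into neurons. They were taken as every probe set whose single gene symbol in the platform annotation is one of these names. That gave 10 probe sets of 8 genes, among 45037 probe sets that are no controls and 18193 named genes. They were selected on earlier results from these same intensities, in the comparisons of lines and of days, so their values are a description and carry no p-value.

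During neuronal differentiation RNA was taken from CAG150 cells at day 6, HM1 cells at day 6, CAG150 cells at day 4 and HM1 cells at day 4, and each of these 4 groups had 3 arrays. HM1 cells come from a male mouse and lack a working Hprt gene, and the CAG150 cells carry expanded CAG repeats, per the series title. As far as the study is known, the repeats are in Htt, which is mutated in Huntington's disease. Each kind of cell was represented by 1 line, and nothing in the labels says that replicates were separate cultures, so the spread between arrays may be technical and a p-value measures no more than that spread. The groups follow the sample titles. The descriptions of the HM1 day 6 samples name the earlier day, and those of all day 6 samples carry the same replicate number. The genes that mark neural cells were well above background in all 4 groups: the 12 listed neural markers summed to intensities of 23381 to 24492 in CAG150 at day 6, 18602 to 19925 in HM1 at day 6, 9408 to 9551 in CAG150 at day 4 and 8684 to 9937 in HM1 at day 4.

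GATA factors are zinc finger proteins that bind a short GATA word in DNA. TAL proteins are basic helix-loop-helix factors that pair with E proteins and bind the E-box. LMO proteins have LIM domains and do not bind DNA themselves: they hold GATA and TAL factors together through the adaptor LDB1, a complex best known from blood cells. In the mouse nervous system Gata2, Gata3 and Tal1 mark V2b interneurons of the spinal cord, and Gata2 and Tal2 direct the formation of GABAergic neurons in the midbrain. LMO4 competes with LIM homeodomain factors for LDB1.

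The start regions of 3 members are shown. Tal2 and Lmo1 had the largest day differences among the members with an entry. Tal1 held both words that this family binds in its start region, as did Gata3, which is not shown. The sequences come from RefSeq on the build GRCm38.p6, from 250 bases before to 50 bases after the annotated start, 5′ to 3′ on the gene's own strand. Capitals mark E-boxes (CANNTG) and GATA words (AGATAA, with A or T allowed as its first base and A or G as its last), searched on both strands.
Tal2, chr4:53779451-53779750, plus strand: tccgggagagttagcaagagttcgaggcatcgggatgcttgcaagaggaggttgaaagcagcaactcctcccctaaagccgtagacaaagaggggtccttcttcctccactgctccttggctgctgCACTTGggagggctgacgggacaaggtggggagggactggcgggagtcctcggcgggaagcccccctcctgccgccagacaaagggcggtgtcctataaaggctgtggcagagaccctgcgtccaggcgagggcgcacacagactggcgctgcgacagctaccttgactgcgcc
Lmo1, chr7:109175158-109175457, minus strand: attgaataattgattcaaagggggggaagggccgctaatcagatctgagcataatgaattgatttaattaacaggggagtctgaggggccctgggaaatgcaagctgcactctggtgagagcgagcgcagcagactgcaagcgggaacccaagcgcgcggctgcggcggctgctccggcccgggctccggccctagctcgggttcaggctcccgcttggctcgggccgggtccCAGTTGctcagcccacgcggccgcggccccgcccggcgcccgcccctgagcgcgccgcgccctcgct
Tal1, chr4:115056176-115056475, plus strand: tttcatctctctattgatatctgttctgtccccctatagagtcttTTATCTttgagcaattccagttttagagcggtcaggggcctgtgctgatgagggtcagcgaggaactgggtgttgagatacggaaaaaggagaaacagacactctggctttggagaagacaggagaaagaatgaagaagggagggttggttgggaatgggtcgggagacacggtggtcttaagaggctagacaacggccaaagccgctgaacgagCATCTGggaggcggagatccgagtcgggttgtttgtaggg
The Tal2 window held 1 E-box, CACTTG, 124 bases before the start, and no GATA word. The Lmo1 window held 1 E-box, CAGTTG, 17 bases before the start. The Tal1 window held a GATA word on the opposite strand, read here as TTATCT, 205 bases before the start, and an E-box, CATCTG, that begins at base 11 when the start is counted as base 1. None of these matches overlapped another. Promoter windows were given for 7 of the 8 members, 12 in all, and a GATA word was otherwise found only in that of Gata3. Across all 32851 windows of this length, an E-box was present in 72.3% and a GATA word in 29.8%, so a match describes the letters and does not show a binding site. Lmo2 had no entry.

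Intensities are the authors' scaled values in arbitrary units, and levels are compared between groups for 1 probe set at a time, never between genes. Differences are of log2(intensity + 16) with the standard error from a limma fit over all 12280 genes that passed a filter on low signal, at a mean intensity of about 11.9. The added 16 understates the change of dim genes. Of the 8 members, 6 passed the filter, while Gata3 and Lmo3 did not and are shown as values near background, with standard errors from the same fit without the filter. A gene is called non-overlapping where every array of a group lay above or below every array of the other. At a limma adjusted p under 0.05, 21.4% of all tested genes passed for CAG150 minus HM1 at day 6 and 15.8% at day 4. For day 6 minus day 4, 44.4% passed in CAG150 and 38.9% in HM1. The counts of list genes below are to be read beside these shares. In cultures measured in bulk, fewer cells of a type and less RNA per cell cannot be told apart.

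**Figure D1:**
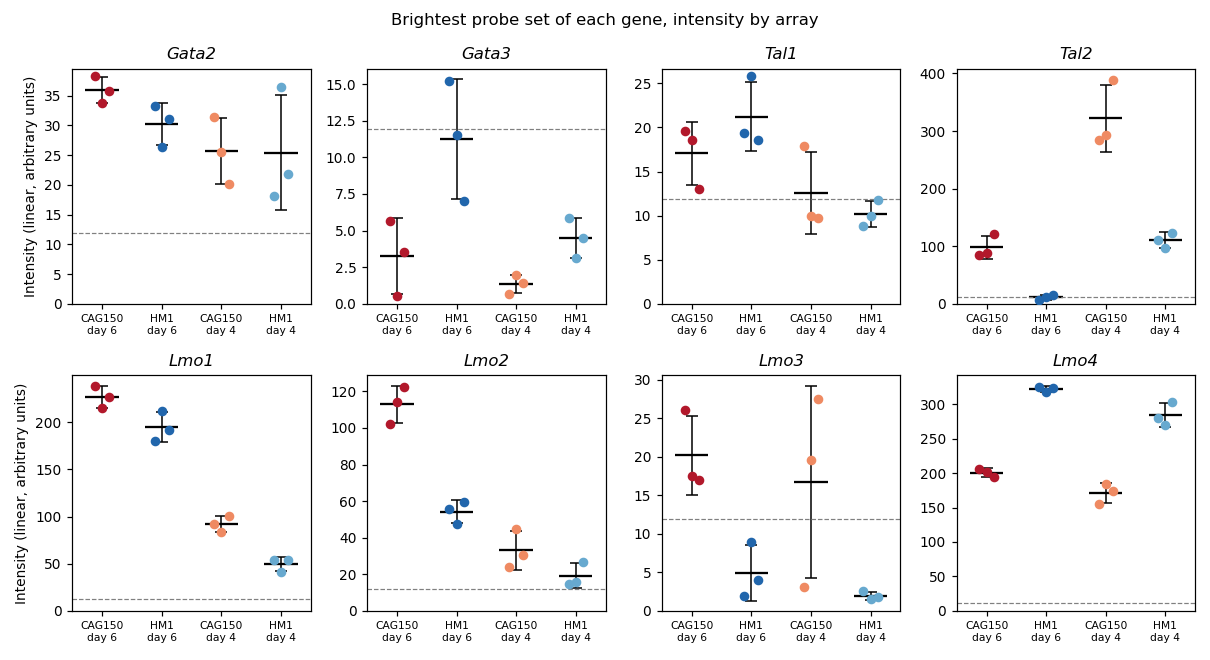
Intensity (linear, arbitrary units) of the brightest probe set of each of the 8 members on each array, in CAG150 at day 6, HM1 at day 6, CAG150 at day 4 and HM1 at day 4. Points are arrays, black lines and bars are the mean ± SD of 3 arrays, and the dashed line is the filter at 11.9. Tal2 was highest in CAG150 at day 4 and at the filter in HM1 at day 6, while Lmo4 was higher in HM1 at both days.

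On the log2(intensity + 16) scale, Tal2 had the largest differences in the family. With 1 added in place of 16, the dim Lmo3 exceeded it for CAG150 minus HM1 at day 4 (2.19, against 1.53 for Tal2), and Lmo2 exceeded it in size for the days in CAG150 (1.79, against -1.71 for Tal2). Tal2 (probe set 1450517_at) had intensities of 84.8, 88.6 and 121 in CAG150 at day 6 and 6.99, 11.7 and 14.6 in HM1 at day 6. Its day 4 values were 284, 294 and 389 in CAG150 and 110.2, 96.2 and 124 in HM1. At both days every CAG150 array lay above every HM1 array, and in both lines every day 6 array was below every day 4 array. The lowest CAG150 array at day 6 was below the lowest HM1 array at day 4, and the day 6 CAG150 and day 4 HM1 groups overlapped.

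On the log2 scale Tal2 was higher in CAG150 by 2.07 ± 0.16 at day 6 and by 1.42 ± 0.16 at day 4 (SE, n = 3 arrays per group), which are 4.20-fold and 2.67-fold. The day difference was -1.57 ± 0.16 in CAG150 and -2.22 ± 0.16 in HM1. The day 6 comparison and the HM1 day difference both rest on the dim HM1 group of day 6: with 1 or 64 added in place of 16, they became 3.07 or 1.10 for the lines and -3.24 or -1.21 for the days. The difference between the 2 day differences was 0.65 ± 0.22, and it had the opposite sign, at -0.04, with 64 added.

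A dimmer probe set of Tal2 (1460309_at) read 46.6, 60.2 and 47.0 in CAG150 at day 6, and 16.1, 0.760 and 20.3 in HM1 at day 6. It read 150.4, 139 and 136 in CAG150 at day 4, and 46.2, 56.7 and 53.6 in HM1 at day 4. Its differences ran the same way in all 4 comparisons, with 1.31 and 1.21 for CAG150 minus HM1 at day 6 and day 4 and -1.23 and -1.34 for day 6 minus day 4 in CAG150 and HM1. Its difference between the day differences was 0.10.

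Tal1, a blood and V2b factor, was dim in all 4 groups. It had 19.7, 18.6 and 13.0 in CAG150 at day 6 and 19.3, 25.8 and 18.6 in HM1 at day 6. At day 4 the arrays read 17.9, 10.01 and 9.76 in CAG150 and 8.87, 9.99 and 11.8 in HM1. The lines overlapped at both days, with log2 differences of -0.17 ± 0.13 at day 6 and 0.11 ± 0.13 at day 4. In HM1 all day 6 arrays lay above all day 4 arrays (0.50 ± 0.13), while in CAG150 the days overlapped (0.22 ± 0.13).

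Among the GATA factors, Gata2 was dim, and its 4 groups lay close together. Its brighter probe set (1450333_a_at) had 38.3, 33.8 and 35.7 in CAG150 at day 6 and 33.2, 26.4 and 31.1 in HM1 at day 6. The day 4 arrays gave 31.4, 25.6 and 20.2 in CAG150 and 18.1, 36.4 and 21.8 in HM1. The lines were separated at day 6 by a narrow gap (0.17 ± 0.15) and overlapped at day 4 (0.03 ± 0.15). CAG150 was separated between days (0.32 ± 0.15) and HM1 was not (0.18 ± 0.15). Both separations were lost with quantile normalization and with median centring, and the day 4 line difference then turned to -0.05 and -0.04. A dimmer probe set (1428816_a_at), below the filter, read 8.05, 13.1 and 15.1 in CAG150 at day 6, against 1.10, 3.77 and 6.54 in HM1 at day 6. There the lines were apart, while at day 4 they overlapped, with 2.49, 4.37 and 1.73 in CAG150 and 11.6, 6.16 and 1.31 in HM1.

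Gata3, which acts beside Gata2 in V2b interneurons and in sympathetic neurons, was below the filter. It had 5.67, 0.547 and 3.56 in CAG150 at day 6 and 15.2, 11.5 and 7.03 in HM1 at day 6. Day 4 values were 0.703, 1.94 and 1.42 in CAG150 and 5.88, 3.13 and 4.48 in HM1. The CAG150 arrays lay below the HM1 arrays at both days (-0.50 ± 0.13 and -0.24 ± 0.13), but every value except 1 HM1 array at day 6 was under the filter intensity of 11.9. The HM1 days did not overlap either (0.40 ± 0.13).

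The LMO genes differed from each other in direction. Lmo1, known in human disease as an oncogene of T cells and of neuroblastoma, was higher at day 6 in both lines. It had 238, 215 and 227 in CAG150 at day 6 and 181, 212 and 192 in HM1 at day 6. At day 4, Lmo1 read 91.8, 83.2 and 101 in CAG150 and 53.6, 41.5 and 54.2 in HM1. All day 6 arrays exceeded all day 4 arrays, across both lines.

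The day difference of Lmo1 was 1.17 ± 0.10 in CAG150 and 1.68 ± 0.10 in HM1, which are 2.25-fold and 3.21-fold. CAG150 was higher by 0.72 ± 0.10 at day 4 and by 0.20 ± 0.10 at day 6. The day 6 groups were 215 to 238 in CAG150 and 181 to 212 in HM1, and they overlapped with quantile normalization or median centring. The day differences of the lines differed by -0.51 ± 0.14, the larger being in HM1.

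Lmo2, the bridge of the blood complex, was also higher at day 6. It had 102, 114 and 123 in CAG150 at day 6 and 55.9, 47.2 and 59.5 in HM1 at day 6. At day 4, Lmo2 gave 24.0, 44.5 and 30.5 in CAG150 and 14.4, 16 and 26.8 in HM1. The lines were apart at day 6 (0.88 ± 0.16, 1.84-fold) and overlapped at day 4 (0.48 ± 0.16), where the lowest CAG150 array read less than the highest HM1 array. The days were apart in both lines, by 1.42 ± 0.16 in CAG150 and 1.01 ± 0.16 in HM1, and these differed by 0.40 ± 0.22.

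The blood and endothelial markers, given beside Lmo2 and Tal1, had a low summed level in all 4 groups. Of 22 listed markers 21 had a named probe set, and their summed level ran from 297 to 370 in CAG150 at day 6, 320 to 372 in HM1 at day 6, 359 to 391 in CAG150 at day 4 and 296 to 356 in HM1 at day 4. The filter was passed by 8 of the 21. Hba-x, an embryonic globin, had 5.24 ± 3.87 in CAG150 at day 6, 3.92 ± 2.25 in HM1 at day 6, 2.90 ± 2.63 in CAG150 at day 4 and 4.33 ± 5.92 in HM1 at day 4. Pecam1, an endothelial junction protein, had 3.43 ± 2.19 in CAG150 at day 6, 3.17 ± 2.74 in HM1 at day 6, 2.70 ± 1.90 in CAG150 at day 4 and 4.75 ± 5.94 in HM1 at day 4. Gata1, the GATA factor of red cells, and Lyl1, a close relative of Tal1, were below the filter. Of the 8 tested markers, 0 were higher and 1 lower in CAG150 at day 6, and 1 was higher and 2 lower at day 4, by limma. Between days 0 were higher and 1 lower at day 6 in CAG150, and 0 passed in HM1, where 3 had an unadjusted p under 0.05. Tek, a receptor of endothelial cells, was the gene lower at day 6, with 7.67 ± 5.07 in CAG150 and 23.0 ± 5.49 in HM1 (-0.73 ± 0.19, limma adjusted p = 0.014). That call was lost with 1 added in place of 16 and without CAG150 replicate 3 or HM1 replicate 3 of day 6. The part of such cells in the levels of Lmo2 and Tal1 was not tested.

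Lmo3, an LMO gene of the brain, was close to background in most arrays. It had 26.0, 17.5 and 16.9 in CAG150 at day 6 and 1.89, 8.87 and 3.93 in HM1 at day 6. Day 4 arrays read 3.09, 19.6 and 27.4 in CAG150 and 2.52, 1.51 and 1.82 in HM1. CAG150 lay above HM1 at both days (0.80 ± 0.24 and 0.78 ± 0.24), with the day 4 gap resting on a single CAG150 array at 3.09, close to the HM1 array at 2.52. That day 4 separation was lost with median centring. The days overlapped in both lines. With 1 and 64 added, the line difference was 2.00 and 0.29 at day 6 and 2.19 and 0.28 at day 4.

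Lmo4, which is made in many tissues and restrains LIM homeodomain factors, was the member with the tightest groups. It had 207, 202 and 194 in CAG150 at day 6 and 326, 318 and 324 in HM1 at day 6. On day 4, Lmo4 had 156, 185 and 173 in CAG150 and 281, 270.1 and 303 in HM1. Every CAG150 array, at either day, was below every HM1 array. The line difference was -0.64 ± 0.08 at day 6 and -0.68 ± 0.08 at day 4, which are 1.56-fold and 1.61-fold lower levels in CAG150.

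Between days Lmo4 moved little: 0.21 ± 0.08 in CAG150 and 0.17 ± 0.08 in HM1. The groups were apart in both lines, but with median centring, which itself shifted the median of all genes to -0.11 in HM1, they overlapped and the differences were 0.11 and 0.07. The day differences of the lines differed by 0.04 ± 0.12.

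Markers of epithelial and undifferentiated cells moved with Lmo4 and Gata3 between the lines. The 13 surface ectoderm markers summed to 777 to 849 in CAG150 at day 6, 1676 to 2005 in HM1 at day 6, 553 to 590 in CAG150 at day 4 and 2154 to 2590 in HM1 at day 4. Of the 10 tested, 2 were higher and 6 lower in CAG150 at day 6, and 0 were higher and 8 lower at day 4. Of all tested genes, 21.4% passed at day 6 and 15.8% at day 4. Krt18, a keratin of simple epithelia, had 67.5 ± 6.47 in CAG150 and 547 ± 61.1 in HM1 at day 6 (-2.75 ± 0.12, adjusted p = 1.5e-08). Tfap2a, a factor of surface ectoderm and neural crest, ran the other way at day 6, with 211 ± 30.6 in CAG150 and 35.4 ± 4.39 in HM1 (2.13 ± 0.16, adjusted p = 1.5e-06).

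The trophoblast markers, of which 10 of 13 had a named probe set, summed to 309 to 351 in CAG150 at day 6, 1053 to 1240 in HM1 at day 6, 309 to 384 in CAG150 at day 4 and 1172 to 1478 in HM1 at day 4. This sum holds the keratins Krt8 and Krt18 as well, and of the 6 tested, 2 were higher and 3 lower in CAG150 at day 6 and 0 were higher and 2 lower at day 4. The placental gene Tpbpa was below the filter. The 8 pluripotent cell markers summed to 946 to 1004 in CAG150 at day 6, 2227 to 2530 in HM1 at day 6, 512 to 569 in CAG150 at day 4 and 1534 to 1703 in HM1 at day 4, and 6 of 8 were lower in CAG150 at each day. Pou5f1, which keeps stem cells undifferentiated, had 106 ± 29.4 in CAG150 and 308 ± 10.4 in HM1 at day 6 (-1.43 ± 0.23, adjusted p = 0.00079). The part of these cells in the levels of Lmo4 and Gata3 was not tested.

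Counted over the family, CAG150 and HM1 did not overlap at day 6 for 7 of 8 members, where 38.6% of all tested genes did not overlap. Gata2, Tal2, Lmo1, Lmo2 and Lmo3 were higher (18.8% of all tested genes) and Gata3 and Lmo4 lower (19.8%). At day 4 it was 5 of 8, against 34.4% of all tested genes, with Tal2, Lmo1 and Lmo3 higher (17.3% of all tested genes) and Gata3 and Lmo4 lower (17.1%). Between days it was 5 of 8 in CAG150, against 55% of all tested genes, with Gata2, Lmo1, Lmo2 and Lmo4 higher at day 6 (27.4%) and Tal2 lower (27.6%). In HM1 it was 6 of 8, against 49.1%, with Gata3, Tal1, Lmo1, Lmo2 and Lmo4 higher at day 6 (24.8%) and Tal2 lower (24.3%). Quantile normalization left 5, 5, 4 and 6 members apart in these 4 comparisons, and median centring left 5, 4, 3 and 5. The member counts here and below include Gata3 and Lmo3, which are below the filter, while the shares cover only genes above it. On the intensities as deposited, of the 6 members above the filter 4 were higher and 1 lower in CAG150 at day 6. At day 4, 2 were higher and 1 lower, and between days 4 were higher and 1 lower in each line. Since the members were chosen with these contrasts known, nothing is read from the counts. A log2 difference of at least 0.5 in size was reached by 4 members for CAG150 minus HM1 at day 6 and 4 at day 4, by 3 for the days in CAG150 and by 4 in HM1. Over all tested genes the shares were 11.8% and 9.19% for the lines at day 6 and day 4, and 25.6% and 21% for the days in CAG150 and HM1. For the difference between the day differences, Tal2 and Lmo1 reached it, as did 9.45% of all tested genes, and 3.61% of all tested genes passed the test.

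**Figure D2:**
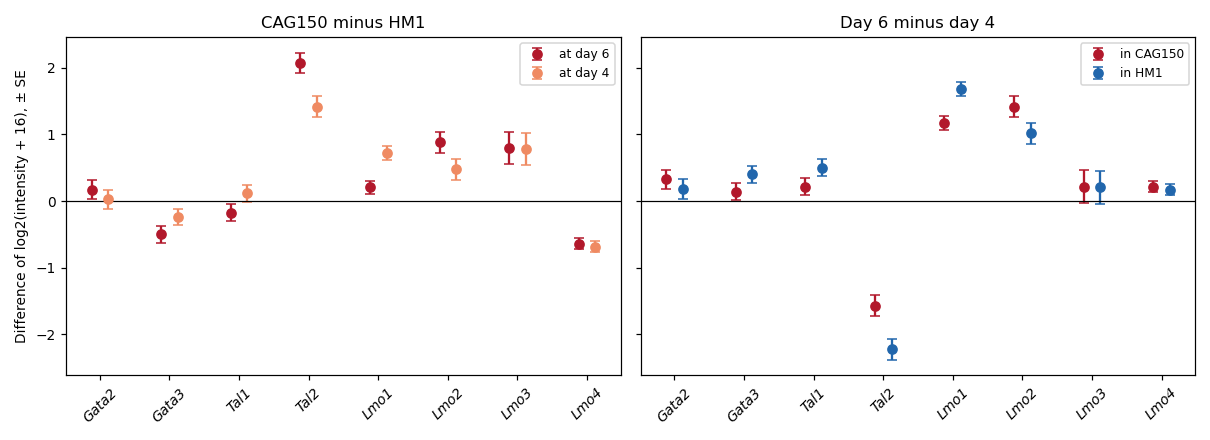
Differences of log2(intensity + 16) of the 8 members, CAG150 minus HM1 on the left and day 6 minus day 4 on the right, with the standard error from the fit over 12 arrays. On this scale Tal2 had the largest line differences (2.07 and 1.42) and was lower at day 6 in both lines, Lmo1 and Lmo2 were higher at day 6 in both lines, and Lmo4 was lower in CAG150 at both days.

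For each member above the filter, the 3 tested genes with the highest correlation of log2(intensity + 16) over the 12 arrays were taken. The arrays form 4 groups, so such a correlation mostly reflects the order of 4 group levels, and it is a description with no test. Tal2 was most like Fam181b (r = 0.99), Pimreg (0.98) and Otx2 (0.98). Otx2, a forebrain and midbrain regulator, had 408 ± 61.7 in CAG150 at day 6, 102 ± 26.8 in HM1 at day 6, 782 ± 71.9 in CAG150 at day 4 and 332 ± 20.1 in HM1 at day 4. It shared with Tal2 the highest level in CAG150 at day 4 and the lowest in HM1 at day 6.

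Lmo1 was most like Bmi1, a Polycomb protein (r = 0.995), Scg3, a granin of secretory granules (0.99), and Cyp26b1, which breaks down retinoic acid (0.99). Scg3 had 705 ± 43.8 in CAG150 at day 6, 528 ± 15.4 in HM1 at day 6, 182 ± 14.1 in CAG150 at day 4 and 91.3 ± 7.62 in HM1 at day 4. Lmo2 was most like Cyfip2, LTO1 and Fam214a, each with r = 0.98. Lmo1 and Lmo2 themselves had r = 0.89 over the 12 arrays.

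Lmo4 was most like Sparc, a matrix protein, Gpc4, a heparan sulfate proteoglycan, and Fos, an immediate early gene, each with r = 0.98. Gpc4 had 232 ± 9.15 in CAG150 at day 6, 905 ± 113 in HM1 at day 6, 179 ± 20.8 in CAG150 at day 4 and 759.7 ± 96.0 in HM1 at day 4, a wider span between the lines than that of Lmo4. Lmo4 and Tal2 had r = -0.82, and for both genes the HM1 mean at day 4 lay above the CAG150 mean at day 6. The closest genes to the dim Gata2 were B4galt7 (0.91), Stk25 (0.90) and Gm2137 (0.88), and to Tal1 Ppp1r3d, Zfyve9 and Myo9a (each 0.90).

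**Figure D3:**
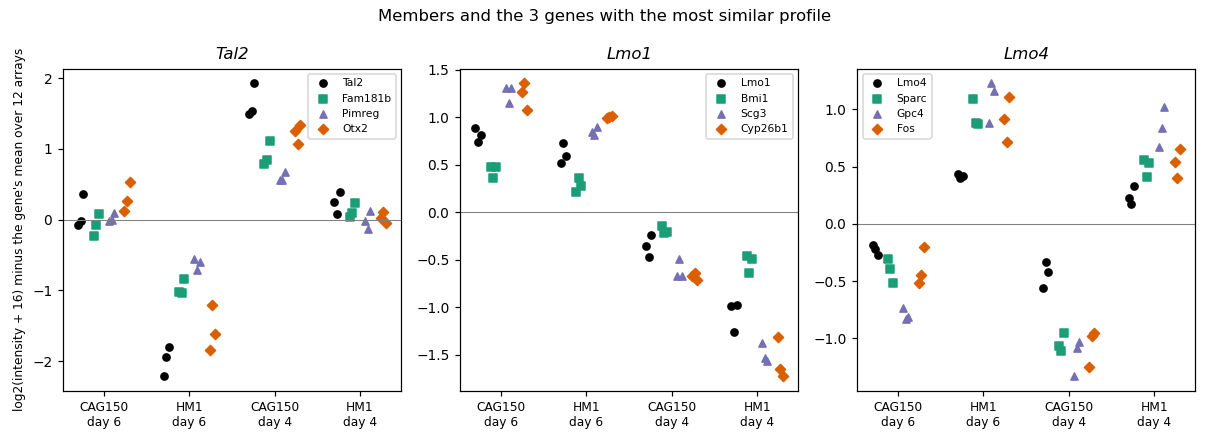
Tal2, Lmo1 and Lmo4 with their 3 most similar genes, as log2(intensity + 16) minus each gene's mean over the 12 arrays, in CAG150 at day 6, HM1 at day 6, CAG150 at day 4 and HM1 at day 4. Each point is an array, and within each panel the 4 genes have their highest level in the same group and their lowest in the same group.

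The partners of the family came from lists written from textbook knowledge. LDB1, the adaptor that joins LMO proteins to their partners, was level: Ldb1 had 328 ± 38.9 in CAG150 at day 6, 354 ± 93.2 in HM1 at day 6, 320.2 ± 35.9 in CAG150 at day 4 and 342 ± 39.2 in HM1 at day 4. It is named for its role, after its values were seen, and it did not pass in any of the 4 comparisons (CAG150 minus HM1 at day 6, -0.08 ± 0.17, limma adjusted p = 0.80, and at day 4, -0.09 ± 0.17, adjusted p = 0.77). Among the 13 tested LDB1 complex cofactors, 1 was higher and 0 lower in CAG150 at day 6, where 21.4% of all tested genes passed. At day 4, 0 were higher and 2 lower, against 15.8% of all tested genes.

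Runx1t1, a corepressor of the ETO family, was the cofactor higher at day 6, with 172 ± 66.6 in CAG150 and 56.5 ± 12.5 in HM1 (1.32 ± 0.23, adjusted p = 0.0015). At day 4 it had 7.84 ± 3.22 in CAG150 and 16.8 ± 4.04 in HM1 and did not pass (-0.46 ± 0.23, adjusted p = 0.20). Ssbp3, which stabilises LDB1, was lower in CAG150 at day 4, with 513 ± 43.0 against 701 ± 12.6 in HM1 (-0.44 ± 0.09, adjusted p = 0.0066), a call lost with the mean of its probe sets (adjusted p = 0.051). Over time, 5 cofactors were higher and 1 lower at day 6 in CAG150, where 44.4% of all tested genes passed, and 3 were higher and 1 lower in HM1, against 38.9%. Ssbp2, also a partner of LDB1, was higher at day 6 in both lines (0.60 ± 0.08 and 0.67 ± 0.08, adjusted p = 3.9e-05 and 2.2e-05).

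The E proteins pair with TAL factors, and the Id proteins block that pairing. At day 6, 4 of the 7 listed genes were higher and 1 lower in CAG150 (median log2 difference 0.29, against -0.0019 over all tested genes), and at day 4, 2 were higher and 2 lower (median -0.19, against 0.0051). Id3 was higher at both days, with 1041 ± 41.9 in CAG150 and 523 ± 52.3 in HM1 at day 6 (0.98 ± 0.12, adjusted p = 0.00011), and 788 ± 62.8 in CAG150 and 435 ± 73.2 in HM1 at day 4 (0.84 ± 0.12, adjusted p = 0.0005). Tcf12, the E protein HEB, had 3579 ± 90.5 in CAG150 and 2921 ± 131 in HM1 at day 6 (0.29 ± 0.07, adjusted p = 0.011), and 2907 ± 50.3 in CAG150 and 1817 ± 2.42 in HM1 at day 4 (0.67 ± 0.07, adjusted p = 4.5e-05). The day 6 call of Tcf12 was lost with median centring and without HM1 day 6 replicate 3.

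Tcf3 and Tcf4, the other E proteins, did not pass between the lines at either day. Tcf3 had 499 ± 43.3 in CAG150 and 546 ± 19.2 in HM1 at day 6, and Tcf4 had 687 ± 38.2 in CAG150 and 779 ± 19.5 in HM1. Over time, 6 of the 7 genes were higher and 0 lower in CAG150, and 3 were higher and 1 lower in HM1. Id4 had the largest increase of the 7 in both lines, of 2.12 ± 0.09 in CAG150 (1451 ± 47.5 at day 6, against 321 ± 18 at day 4, adjusted p = 2.6e-09) and 1.64 ± 0.09 in HM1 (1820.3 ± 135 at day 6, against 574 ± 33.6 at day 4, adjusted p = 2.6e-08).

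The LIM homeodomain factors share LDB1 with the LMO proteins. Of the 9 tested, 3 were higher and 2 lower in CAG150 at day 6, and 2 were higher and 1 lower at day 4. Lhx9 had 117 ± 28.3 in CAG150 and 18.8 ± 4.10 in HM1 at day 6 (1.92 ± 0.15, adjusted p = 1.8e-06). Its 2 other probe sets above the filter gave differences of 0.72 and 1.91. Isl1, a factor of motor and sensory neurons, had 106 ± 14.5 in CAG150 and 351 ± 16 in HM1 at day 6 (-1.60 ± 0.13, adjusted p = 2.8e-06), and at day 4 it had 67.5 ± 15.3 in CAG150 and 68.2 ± 3.66 in HM1 (-0.03 ± 0.13, adjusted p = 0.92). Lhx2, a forebrain factor, was higher in CAG150 at day 6 (195 ± 12.6 against 72.0 ± 6.54 in HM1, 1.27 ± 0.11, adjusted p = 6.5e-06) and lower at day 4 (89.5 ± 12.3 against 213 ± 25.5 in HM1, -1.12 ± 0.11, adjusted p = 2.5e-05). Over time 5 were higher and 0 lower in CAG150, and 4 were higher and 2 lower in HM1.

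**Figure D4:**
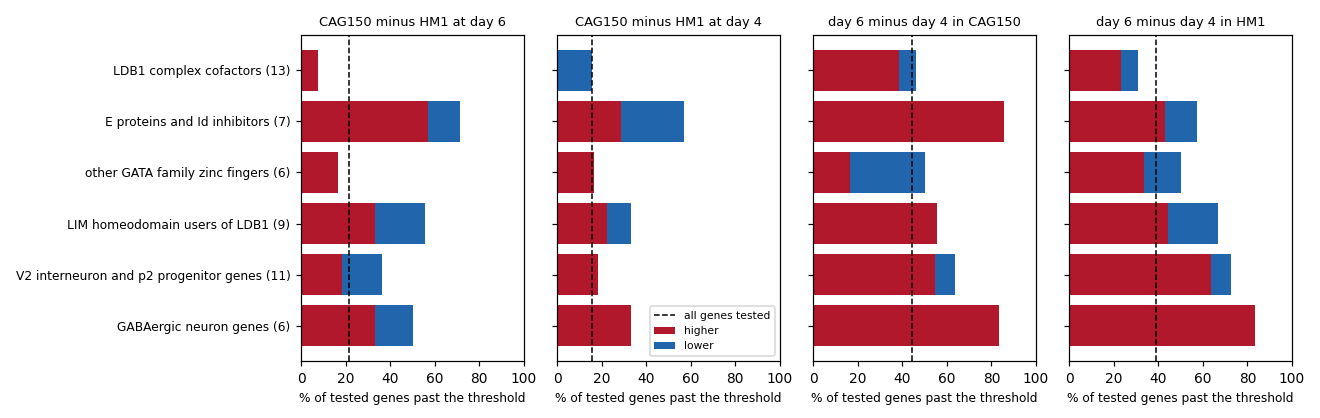
Share of the tested genes of 6 lists (number tested in brackets) that passed at an adjusted p under 0.05 in each of 4 comparisons, in percent, higher in red and lower in blue, with the share over all 12280 tested genes as a dashed line. The E protein and Id list reached 5 of 7 at day 6 and the LDB1 cofactors 1 of 13.

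The V2 interneuron and p2 progenitor genes, the spinal setting of Gata2, Gata3 and Tal1, moved both ways. Of 18 listed genes 15 had a named probe set and 11 were tested, and 2 were higher and 2 lower in CAG150 at day 6 and 2 higher and 0 lower at day 4. Foxn4, the factor of V2 progenitors, had 46.6 ± 8.21 in CAG150 and 13.8 ± 9.37 in HM1 at day 6 (1.12 ± 0.22, adjusted p = 0.0032). Nkx6-1, a ventral progenitor factor, had 20.3 ± 4.12 in CAG150 and 57.0 ± 6.22 in HM1 at day 6 (-1.01 ± 0.18, adjusted p = 0.0018). Pax6, which marks progenitors, was lower in CAG150 at day 6 (781 ± 61.0 against 1038 ± 37.3 in HM1, -0.40 ± 0.09, adjusted p = 0.0068). Between days 6 were higher and 1 lower in CAG150, and 7 were higher and 1 lower in HM1.

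Of 16 listed GABAergic neuron genes, 13 had a named probe set and 6 were tested, so the list was cut strongly. Gad1 and Gad2, the enzymes that make GABA, were below the filter: Gad1 had 17.7 ± 1.60 in CAG150 at day 6, 9.48 ± 4.57 in HM1 at day 6, 4.55 ± 0.796 in CAG150 at day 4 and 5.90 ± 1.07 in HM1 at day 4. At day 6, 2 of the 6 were higher and 1 lower in CAG150, and at day 4, 2 were higher and 0 lower. Ptf1a, which directs GABAergic fate in the dorsal spinal cord and cerebellum, had 87.6 ± 26.9 in CAG150 and 9.45 ± 2.00 in HM1 at day 6 (2.00 ± 0.16, adjusted p = 3.1e-06). Between days 5 were higher and 0 lower in each line, and Sst, a neuropeptide, gained 2.43 ± 0.12 in CAG150 and 2.41 ± 0.12 in HM1 (adjusted p = 1.1e-08 and 1.5e-08).

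The other GATA family zinc fingers were 6 tested genes of 8, of which 1 was higher and 0 lower in CAG150 at each day. Trps1, a GATA-type repressor, was that gene at both days, with 149 ± 10.9 in CAG150 and 76.7 ± 7.87 in HM1 at day 6 (0.84 ± 0.13, adjusted p = 0.00082), and 60.1 ± 5.37 in CAG150 and 22.4 ± 7.87 in HM1 at day 4 (1.01 ± 0.13, adjusted p = 0.00027). Gata6, an endoderm factor, had 18.4 ± 0.360 in CAG150 and 23.1 ± 3.62 in HM1 at day 6 and did not pass (-0.18 ± 0.12, adjusted p = 0.30). Between days, 1 was higher and 2 lower in CAG150, and 2 were higher and 1 lower in HM1. Gatad2a, a subunit of the NuRD complex, was lower at day 6 in both lines by its brightest probe set (-0.74 ± 0.08 and -0.62 ± 0.08, adjusted p = 1.4e-05 and 7.7e-05). Its 4 other probe sets above the filter ran from -0.58 to 0.03 in CAG150 and from -0.62 to 0.13 in HM1.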

How the data were processed

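Expression was measured on 12 Affymetrix mouse arrays, 3 in each of 4 groups. The authors deposited a linear intensity per probe set, scaled so that the mean without the top and bottom 2% of an array is 150, as the values show. The software that made them is not given in the sources. Median intensities ran from 19.2 to 25.9. Array values correlated at 0.9897 to 0.9925 within groups and 0.9291 to 0.9794 between groups. Precision is limited by the number of arrays.

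Of 45101 probe sets, 64 controls were left out. By the platform annotation 34945 have 1 gene symbol, 932 several and 9160 none here. Intensities were taken as log2(intensity + 16), with the brightest probe set per gene, and the 12280 genes whose mean exceeded the 40th percentile over all probe sets were tested. One mean per group was fitted with limma 3.58.1 (lmFit, eBayes; 8 residual and 4.46 prior degrees of freedom) in R 4.3.3. The 5 comparisons were CAG150 minus HM1 at each day, day 6 minus day 4 in each line, and the difference of the day differences. P-values were adjusted by Benjamini-Hochberg over all tested genes, with a threshold of 0.05. An unadjusted p under 0.05 was found for 4159, 3654, 6355, 5814 and 2021 genes.

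The members and the 12 gene lists were chosen with earlier results of these data known. All members are named, up to 4 passing genes with the largest difference per list and comparison (or, where none passed, the gene with the smallest p), and the 3 genes most correlated with each member above the filter. List members below the filter may be named as such. Ldb1, Tcf3, Tcf4, Gad1, Tpbpa, Hba-x, Pecam1 and Gata6 are given for their role, after their values were seen. Lists were counted, with no set test. The serotonergic and sympathetic list (5 tested) had 2 higher and 0 lower in CAG150 at day 6 and 0 at day 4, where 4 had an unadjusted p under 0.05. The neural list (12 tested) had 4 higher and 1 lower at day 6 and 5 higher and 1 lower at day 4.

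Same-numbered replicates showed no strong shared deviation: over 18 same-numbered pairs the correlation of deviations ran from -0.133 to 0.122, with 2 pairs over 0.1. Such correlations cannot tell whether same-numbered samples were cultured or processed together. On simulated data of 12280 genes, a log2 change of 1 was recovered for 97 of 100 genes and a change of 0.5 for 49 of 100 in CAG150 minus HM1 at day 6, with 11 false calls. At day 4 these were 96, 52 and 7. The simulation changed 100 genes at each size, while 2624 genes passed at day 6 and 1940 at day 4 on the real arrays. The cutoff depends on that number, so recovery and false calls may differ in the real data. Alternatives were other normalizations, filters, pseudocounts of 1 and 64, averaging the probe sets of a gene, fits of the compared groups alone, a replicate block and each array left out.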

Additional observations from a re-analysis of the deposited data

Results flagged for a closer look

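Some genes of the lists changed from day 4 to day 6 to an extent that differed between CAG150 and HM1, by limma's interaction term at an adjusted p under 0.05. Of the genes given here, Lmx1b, Lhx1 and Lhx5 were not named above. Values are day 6 minus day 4 on the log2 scale, and then the CAG150 difference minus the HM1 difference. Over all 12280 tested genes 3.61% passed for this difference, and the list counts in this section are to be read beside that share. No member had all arrays moving in opposite directions in CAG150 and HM1.

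Of the 9 tested LIM homeodomain factors, which share LDB1, 6 passed for the difference between the day differences, 3 with a positive and 3 with a negative one. Lhx2 moved by 1.01 in CAG150 and -1.38 in HM1 (difference 2.39, adjusted p = 6.5e-06). Lhx9 moved by 1.88 in CAG150 and 0.34 in HM1 (difference 1.54, adjusted p = 0.0013), and the corepressor Runx1t1 by 2.92 in CAG150 and 1.13 in HM1 (difference 1.78, adjusted p = 0.0097). The 2 other probe sets of Lhx9 above the filter disagreed, with differences of 0.15 and 1.63. Lmx1b moved by 0.89 in CAG150 and -0.44 in HM1 (difference 1.32, adjusted p = 0.0058), a call lost when its probe sets were averaged (adjusted p = 0.059). The day call of Lmx1b in HM1 was lost in 11 of 20 alternatives. Isl1, Lhx1 and Lhx5 had the larger value in HM1. Isl1 moved by 0.56 in CAG150 and 2.12 in HM1 (difference -1.57, adjusted p = 0.00045). Lhx1 moved by 1.78 in CAG150 and 2.80 in HM1 (difference -1.02, adjusted p = 0.013), and Lhx5 by -0.03 in CAG150 and 1.15 in HM1 (difference -1.18, adjusted p = 0.008). The Id inhibitor Id4 moved by 2.12 in CAG150 and 1.64 in HM1 (difference 0.49, adjusted p = 0.045), and this call was lost in 14 of 20 alternatives (adjusted p up to 0.24). Of the 7 E proteins and Id inhibitors, 3 passed with a positive difference and 0 with a negative one. Besides Id4 these were Id2 (difference 1.02, adjusted p = 0.00366) and Id1 (0.77, adjusted p = 0.00365).

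Progenitor and epithelial genes differed as well. Ptf1a moved by 2.57 in CAG150 and 0.13 in HM1 (difference 2.44, adjusted p = 0.00013). Pax6 moved by 1.21 in CAG150 and 1.82 in HM1 (difference -0.60, adjusted p = 0.021). That call was lost when 1 of 4 arrays was left out: CAG150 day 6 replicate 3, HM1 day 6 replicate 3, or CAG150 day 4 replicate 1 or 2 (adjusted p up to 0.058). The 3 other probe sets of Pax6 above the filter moved by -0.02 to 1.08 in CAG150 and by 0.86 to 1.86 in HM1. Their differences between the lines ran from -0.88 to -0.60. Nkx6-1 moved by 0.04 in CAG150 and 1.10 in HM1 (difference -1.07, adjusted p = 0.039), lost in 12 of 19 alternatives (adjusted p up to 0.12). Tfap2a moved by 2.86 in CAG150 and 0.81 in HM1 (difference 2.05, adjusted p = 0.00037), and Krt18 by -0.92 in CAG150 and -0.03 in HM1 (difference -0.89, adjusted p = 0.011). Of the 10 tested surface ectoderm markers, 5 passed with a positive difference, Tfap2a among them. Krt18 was the 1 that passed with a negative difference.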

How the results depend on the processing

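The number of members with a log2 difference of at least 0.5 in size changed with the scale of dim values. It was 2 for the difference of the day differences, but 1 with quantile normalization, 0 with 64 added in place of 16 and 1 when the probe sets of a gene were averaged. Leaving out each array gave 1 to 3. The count was 1 without CAG150 day 6 replicate 2, HM1 day 6 replicate 2, CAG150 day 4 replicate 3 or HM1 day 4 replicate 2. For day 6 minus day 4 in CAG150 it was 3, and 5 with 1 added. For CAG150 minus HM1 at day 4 it was 4, and 2 with 64 added. With 64 added, the difference between the day differences of Tal2 reversed to -0.038. The 443 genes that passed for the difference of the day differences became 295 with no filter and 270 to 362 with an array left out (270 without CAG150 day 6 replicate 3, 295 without CAG150 day 4 replicate 2). The cause was not tested.

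List counts that moved by over 1.5 times when an array was left out were of 2 genes or fewer and moved by 1 gene, except the blood markers of HM1 between days, where 0 lower became 2 without HM1 day 6 replicate 1. For the LDB1 cofactors, the 1 higher at day 6 became 2 without HM1 day 6 replicate 3, and the 2 lower at day 4 became 1 without HM1 day 6 replicate 1, CAG150 day 4 replicate 1 or 2, or HM1 day 4 replicate 1 or 3. The 1 lower gene of the E proteins and Id inhibitors at day 6 was lost without CAG150 day 6 replicate 2 or 3 or HM1 day 6 replicate 1. With 64 added, 9 neural markers in place of 4 were higher in CAG150 at day 6. With quantile normalization, 4 V2 genes in place of 2 were. A filter at the 60th percentile tested fewer genes, and surface ectoderm markers lower at day 4 were then 4 in place of 8.

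Median centring moved the share of higher genes among those that passed to 33.4% at day 6 and 31.4% at day 4 for CAG150 minus HM1, against 47.4% and 49.8%, and to 36.2% for the days in CAG150 and 36.2% in HM1, against 50.6% and 52.4%.

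With the replicate number as a block, 2547 genes passed for CAG150 minus HM1 at day 6 and 1867 at day 4, 5425 and 4710 for the days in CAG150 and HM1, and 396 for their difference; 5 of 12 arrays correlated best with their own number. Levels near background, as of Gata3 and Lmo3, limit the members' differences.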

Other observations

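Neural genes gained with time in both lines while Tal2 was lower. Of the 12 neural markers, 11 were higher and 1 lower at day 6 than at day 4 in CAG150, and 10 were higher and 1 lower in HM1. Of all tested genes, 44.4% passed between days in CAG150 and 38.9% in HM1. Dcx, a microtubule protein of young neurons, had 1119 ± 41.3 at day 6 and 78.5 ± 7.01 at day 4 in CAG150 (3.59 ± 0.09, limma adjusted p = 1.7e-10), and 808 ± 67.8 at day 6 and 40.6 ± 2.49 at day 4 in HM1 (3.86 ± 0.09, adjusted p = 7.1e-11). Sox1, an early neural factor, named after its values were seen, was the gene that was lower, with 619 ± 62.0 at day 6 and 1115 ± 33.4 at day 4 in CAG150 (-0.84 ± 0.10, adjusted p = 2.1e-05), and 514 ± 43.3 at day 6 and 1353 ± 106 at day 4 in HM1 (-1.37 ± 0.10, adjusted p = 4.3e-07).

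Serotonergic and sympathetic genes, which Gata2 and Gata3 serve in the mouse, were 5 tested of 12 listed. In CAG150 5 were higher and 0 lower at day 6 than at day 4, and in HM1 2 were higher and 1 lower. The lower gene was Lmx1b (-0.44 ± 0.16, adjusted p = 0.043), and its call was lost in 11 of 20 alternatives, among them the replicate block and 6 left-out arrays (adjusted p up to 0.20). Lmx1b, a factor of serotonergic neurons, had 73.5 ± 8.78 in CAG150 and 30.1 ± 8.75 in HM1 at day 6 (0.97 ± 0.16, adjusted p = 0.00088). Dbh, which makes noradrenaline, had 83.3 ± 9.30 in CAG150 and 32.4 ± 12.4 in HM1 at day 6 (1.07 ± 0.24, adjusted p = 0.008), a call lost with 1 added in place of 16 (adjusted p = 0.067). The other probe set of Dbh above the filter gave a smaller difference, 0.28.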
